A study of Saccharomyces cerevisiae BY4741 with 2 samples.

Results

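Cytoplasmic mRNA decay in budding yeast was examined through 7 genes of its enzymes and activators, chosen by name: CCR4, POP2 and CDC39 of the Ccr4-Not deadenylase complex, DCP2, PAT1 and LSM1 of the decapping machinery, and NMD2 of nonsense-mediated decay. Of these 7 genes, 6 had a row in both strains, each on a single row and above the minimum level used here, among 2809 distinct names and 2211 genes compared. LSM1, a subunit of the ring-shaped complex that binds the shortened 3′ ends of mRNAs and promotes decapping, was not analysed here. The members were named for their function, but with earlier results of these data known.

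RNA came from haploid Saccharomyces cerevisiae labelled as BY4741. The dbp2Δ strain was MATa with DBP2 replaced by a KanMx cassette (dbp2::KanMx). It also carried ura3Δ0, leu2Δ0, his3Δ0, the TRP1 gene, and a met- and a lysΔ allele whose genes the labels do not name. The wild-type strain was MATa with his3Δ1, leu2Δ0, met15Δ0 and ura3Δ0, so the strains differed at HIS3 alleles and at a lysine gene as well as at DBP2, and effects of these differences cannot be told apart. The methionine gene is named for wild type only. Both shared leu2Δ0, ura3Δ0 and growth to mid-log phase at 30 °C in rich medium with 2% glucose. The labels list 2 replicates per strain, but 1 value per gene and strain was deposited, in FPKM (fragments per kilobase of transcript per 1000000 fragments). No difference below therefore has a replicate check, and no test, standard error or p-value could be computed. The depth behind each value is unknown.

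The normal order of events in this pathway is well described. The poly(A) tail of a cytoplasmic mRNA is shortened first, mainly by Ccr4-Not. The Pat1-Lsm complex then binds the deadenylated end, Dcp2 removes the cap, and the exonuclease Xrn1 degrades the body of the message from its 5′ end, while the exosome and Ski complex degrade it from its 3′ end. Nonsense-mediated decay sends mRNAs with a premature stop codon to decapping without prior deadenylation and needs Upf1, Upf2 and Upf3, of which Upf2 is the product of NMD2. Dbp2, a DEAD-box helicase, has been reported to bind Upf1.

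As a check of the labels, DBP2 stood on 3 rows. The row highest in wild type was 2.52 FPKM in dbp2Δ and 1540 FPKM in wild type, 611-fold lower in dbp2Δ. The other rows were 3.70 FPKM in dbp2Δ against 348 FPKM in wild type, and 3.33 FPKM in dbp2Δ against 5.62 FPKM in wild type. Of 7 a-cell genes listed for the mating type, 5 were in the rows and lay between 10.4 and 737 FPKM in dbp2Δ and between 18.6 and 915 FPKM in wild type. The receptor gene STE2 was 433 FPKM in both strains, while the protease gene BAR1 was 32.2 FPKM in dbp2Δ and 141 FPKM in wild type. Of 5 alpha-cell genes, 3 were in the rows. STE3 and MATALPHA1 were at or below 4.10 FPKM in either strain. The alpha-agglutinin gene SAG1, on 2 rows, was 20.8 FPKM in dbp2Δ and 33.8 FPKM in wild type on the one and 11.2 FPKM in dbp2Δ and 5.18 FPKM in wild type on the other. How far these marker values bear on the decay genes was not tested. The 2211 genes compared had a median of 87.9 FPKM in dbp2Δ and 87.5 FPKM in wild type.

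The decay genes were expressed at moderate levels in both strains and, as deposited, none differed by as much as 2-fold. CCR4, CDC39 and NMD2 had higher values in dbp2Δ, by 1.58-fold, 1.37-fold and 1.33-fold. POP2 had a 1.34-fold lower value. DCP2 and PAT1 were within 1.09-fold of wild type. Folds here are plain ratios of the deposited values, whereas log2 ratios have a pseudocount of 1 FPKM added to each strain. Of the 6 members, 4 had higher and 2 had lower values in dbp2Δ, beside 46.0% of all genes compared with a higher value. When the dbp2Δ values were scaled so that the protein-coding genes compared had equal sums in each strain, all 6 members had higher values, beside 69.8% of all genes compared. The number of members at least 2-fold higher was 0, as was the number at least 2-fold lower, where 8.86% and 10.9% of all genes compared passed those limits. At a limit of 1.5-fold, 1 member (CCR4) was higher and 0 were lower, against 18.6% and 23.7% of all genes compared. The members' median log2 ratio was 0.23, and that of all genes compared was -0.08. As deposited, the counts past 2-fold and 1.5-fold were thus not above those shares. With equal protein-coding sums, 3 of the 6 members were at least 1.5-fold higher, above the 38.9% of all genes compared. The share of members with a higher value was above its background under either scaling, but over 6 genes.

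**Figure D1:**
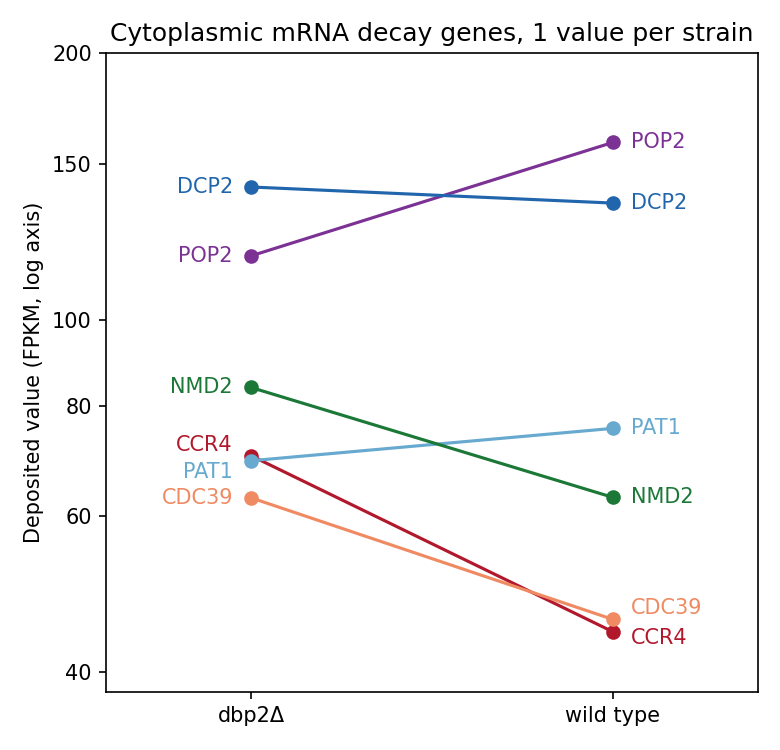
Deposited FPKM (log axis) of the 6 decay genes in dbp2Δ (left) and wild type (right), 1 point per gene and strain, with lines joining the points of a gene. The values lie between 62.9 and 141 FPKM in dbp2Δ and between 44.4 and 159 FPKM in wild type, and POP2 and DCP2 change places at the top.

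Among the genes of Ccr4-Not, the catalytic and scaffold genes did not share a direction as deposited, whereas under equal protein-coding sums each of the 3 had a higher value. CCR4 (YAL021C), which encodes the main deadenylase of yeast, lies on chromosome I at 110846 to 113359 on the minus strand, with a single coding exon. It was 70.2 FPKM in dbp2Δ and 44.4 FPKM in wild type, a log2 ratio of 0.65. CCR4 was the lowest of the 6 members in wild type and the fourth highest in dbp2Δ. In dbp2Δ 43.4% of the genes compared had a lower FPKM than CCR4, and in wild type 33.8% did. Its log2 ratio was higher than that of 83.2% of the genes compared, so ratios of this size were common.

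CDC39 (YCR093W) encodes Not1, the large essential scaffold that holds the complex together. It lies on chromosome III at 280117 to 286443 on the plus strand, and its coding length of 6327 bp was the longest of the members. CDC39 was 62.9 FPKM in dbp2Δ and 45.9 FPKM in wild type, a log2 ratio of 0.45. In wild type it stood beside CCR4, and the ratio of CCR4 to CDC39 was 1.12 in dbp2Δ and 0.97 in wild type. The pair thus kept nearly equal levels per length in both strains.

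POP2 (YNR052C) encodes the Caf1 deadenylase subunit, which links Ccr4 to the Not1 scaffold. It lies on chromosome XIV at 719346 to 720647 on the minus strand, and its coding length of 1302 bp was the shortest of the members compared. POP2 was 118 FPKM in dbp2Δ and 159 FPKM in wild type, a log2 ratio of -0.42, and 31.4% of the genes compared had a lower log2 ratio. It was the highest member in wild type and the second highest in dbp2Δ.

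Ratios between members within a strain do not depend on how the strains were scaled to each other. The ratio of CCR4 to POP2 was 0.59 in dbp2Δ and 0.28 in wild type, a 2.12-fold difference. Among the 15 pairs of members this was the 1 pair whose ratio differed by at least 2-fold, where 39.9% of all pairs of genes compared did. The ratio of POP2 to CDC39 was 1.88 in dbp2Δ and 3.45 in wild type. In wild type POP2 therefore stood further above CCR4 and CDC39 than in dbp2Δ.

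As deposited, DCP2 and PAT1 had values in dbp2Δ close to those in wild type. With equal protein-coding sums their log2 ratios were 0.53 for DCP2 and 0.34 for PAT1. DCP2 (YNL118C) encodes the catalytic subunit of the decapping enzyme and lies on chromosome XIV at 402652 to 405564 on the minus strand. DBP2, the deleted gene, lies 8074 bp to its right on the same chromosome, with 4 annotated genes between them. DCP2 was 141 FPKM in dbp2Δ and 135 FPKM in wild type, a 1.04-fold ratio. It was the highest member in dbp2Δ and the second highest in wild type. PAT1 (YCR077C) encodes a decapping activator that binds Dcp2, the Lsm ring and the helicase Dhh1, and lies on chromosome III at 250238 to 252628 on the minus strand. PAT1 was 69.3 FPKM in dbp2Δ and 75.4 FPKM in wild type, a log2 ratio of -0.12. The ratio of PAT1 to DCP2 was 0.49 in dbp2Δ and 0.56 in wild type. Per length, the decapping activator thus stood at about the same distance below the decapping enzyme in both strains.

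NMD2 (YHR077C) encodes Upf2, which bridges Upf1 and Upf3, and lies on chromosome VIII at 252374 to 255756 on the minus strand. It was 83.8 FPKM in dbp2Δ and 63.0 FPKM in wild type, a log2 ratio of 0.41. NMD2 is the 1 member with an intron. The first coding exon holds only the start codon and 1 more codon, so almost the whole message lies in the second exon, and a gene-level FPKM cannot separate spliced from unspliced RNA. Its start is shown because of this layout, on the minus strand at chrVIII:255626-255756 of assembly R64 (RefSeq), with the first exon, the intron of 113 bp at 255638 to 255750 and 12 bases of the second exon. Capitals mark the first 6 bases of the intron, the branch point motif TACTAAC, found once in it, and the last 3 bases of the intron.
NMD2 start: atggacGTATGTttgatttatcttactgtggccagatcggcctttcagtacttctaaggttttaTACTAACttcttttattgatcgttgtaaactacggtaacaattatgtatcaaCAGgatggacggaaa
The branch point motif ends 48 bases before the end of the intron. Among the 78 intron-containing genes compared that do not carry ribosomal protein names, the median log2 ratio was 0.02, with 40 higher and 38 lower in dbp2Δ, and 70.5% had a lower log2 ratio than NMD2. Of all genes compared, 46.0% had a higher value in dbp2Δ and 73.8% had a lower log2 ratio than NMD2.

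The members' levels lay closer together in dbp2Δ than in wild type. The highest member was 2.24-fold above the lowest in dbp2Δ and 3.57-fold above it in wild type. The SD of log2 FPKM over the 6 members was 0.47 in dbp2Δ and 0.78 in wild type. Over all genes compared the SD was 2.57 in dbp2Δ and 2.68 in wild type. The 3 members lowest in wild type (CCR4, CDC39 and NMD2) were those with the largest log2 ratios, and the highest (POP2) had the smallest. The wild-type value enters both the level and the ratio, so this order is a description only.

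Ratios varied with level across the whole data set, with lower medians among the more abundant genes, so each member was set beside the quintile of the genes compared, by mean FPKM of both strains, to which it belonged. CCR4 and CDC39 lay in the second quintile, whose median log2 ratio was 0.20, and exceeded it by 0.45 and 0.25. NMD2 lay in the third quintile, whose median was 0.00, and exceeded it by 0.40, while PAT1 in the same quintile was below it by a difference of -0.12. DCP2 and POP2 lay in the fourth quintile, whose median was -0.25. DCP2 exceeded that median by 0.31 and POP2 was below it by a difference of -0.17. Read against genes of like level, POP2 was therefore nearer to the middle than its own log2 ratio of -0.42, and DCP2 stood higher than its ratio near 0.

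**Figure D2:**
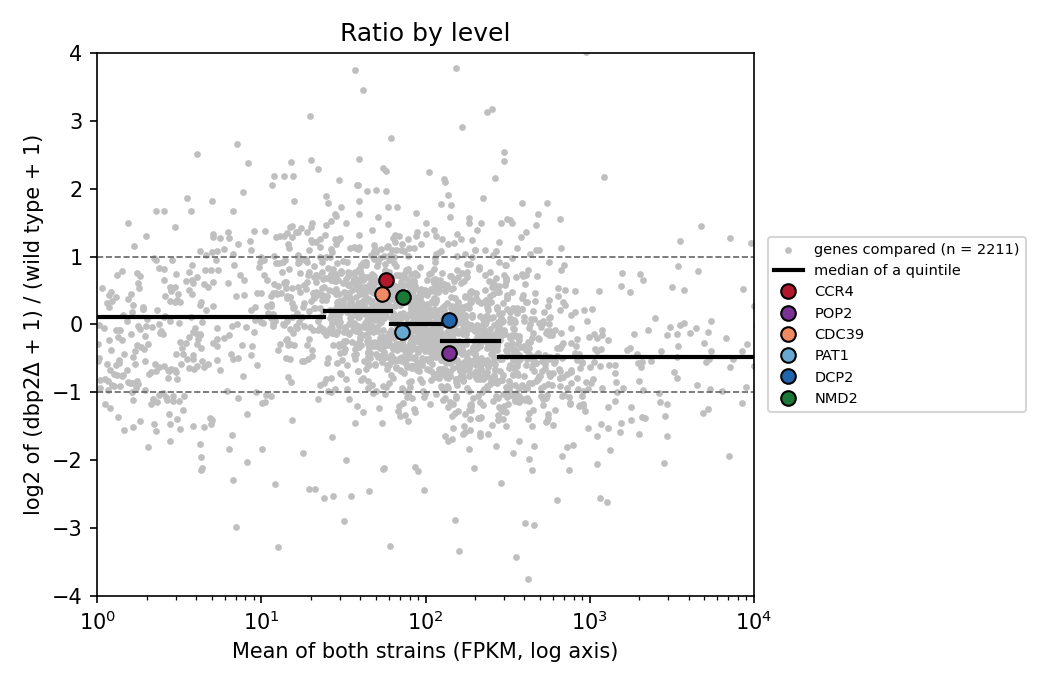
Log2 ratio of dbp2Δ over wild type with a pseudocount of 1 FPKM (vertical axis) against the mean FPKM of both strains (log axis) for the genes compared in grey and the 6 decay genes in colour. Black lines are the medians of quintiles of the genes by level, which run from 0.10 in the lowest quintile and 0.20 in the second to -0.48 in the highest, dashed lines mark 2-fold, and 27 genes lie outside the axes.

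Length was another shared feature. Of the 6 members, 5 had a coding length in the longest quintile of the protein-coding genes compared (2148 bp or more), and POP2 lay in the third quintile. In the longest quintile 5.08% of genes passed the 2-fold limit upwards and 6.35% downwards. In the other length quintiles the shares ran from 9.02% to 10.3% upwards and from 9.02% to 10.8% downwards. The 8.86% and 10.9% over all genes compared also cover genes without a coding length here. The median log2 ratio of the longest quintile was 0.00, and that of the third quintile was -0.14.

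The other genes of the pathway gave a mixed picture. The 5 lists of decay factors named 65 genes including the members, of which 22 were compared. Of these 22 genes, 10 had higher and 12 had lower values in dbp2Δ as deposited, with a median log2 ratio of -0.08, but 18 were higher and 4 lower with equal protein-coding sums (median 0.39). Over all genes compared, 46.0% had higher values as deposited and 69.8% with equal sums. These shares are the background for the higher and lower counts of each list below as well. Without the members, 6 were higher and 10 lower as deposited (median -0.12), and 12 higher and 4 lower with equal sums (median 0.35). As deposited, the 2-fold limit was passed upwards by 1 of the 22 genes and downwards by 0, where 8.86% and 10.9% of all genes compared passed it.

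In the deadenylation list 7 of 13 genes were compared, 4 higher and 3 lower as deposited with a median log2 ratio of 0.01, and 6 higher and 1 lower with equal protein-coding sums (median 0.47). NOT3, a regulatory subunit of Ccr4-Not, was 147 FPKM in dbp2Δ and 294 FPKM in wild type. Its log2 ratio of -0.99 was the largest of the complex in size and just short of the 2-fold limit. CAF40, a conserved subunit, was 47.8 FPKM in dbp2Δ and 37.9 FPKM in wild type, and so lay on the side of CCR4 and CDC39. CAF16, an ABC-type ATPase associated with the complex, was 242 FPKM in dbp2Δ and 302 FPKM in wild type. PAN3, a subunit of the Pan2-Pan3 deadenylase, was 34.5 FPKM in dbp2Δ and 34.3 FPKM in wild type. As deposited, the Ccr4-Not genes had values on both sides of wild type, with NOT3, POP2 and CAF16 lower and CCR4, CDC39 and CAF40 higher, whereas with equal protein-coding sums NOT3 alone was lower (-0.53) and POP2 (0.04) and CAF16 (0.15) were higher.

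In the decapping list 5 of 19 genes were compared, 2 higher and 3 lower as deposited with a median of -0.12, and 4 higher and 1 lower with equal protein-coding sums (median 0.34). DCP1, the partner subunit of Dcp2, was 290 FPKM in dbp2Δ and 320 FPKM in wild type. As deposited, both subunits of the decapping enzyme thus stayed within 1.11-fold of wild type. LSM7, of the same ring as Lsm1, was 211 FPKM in dbp2Δ and 163 FPKM in wild type. SBP1, an RNA-binding protein that promotes decapping, was 502 FPKM in dbp2Δ and 733 FPKM in wild type. Its log2 ratio of -0.54 as deposited was the largest of this list in size. In the nonsense-mediated decay list 1 of 4 genes was compared, NMD2 itself.

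In the list of 3′-to-5′ decay, the Ski complex and no-go decay, 7 of 16 genes were compared, 2 higher and 5 lower as deposited with a median of -0.09, and 5 higher and 2 lower with equal protein-coding sums (median 0.37). HBS1 and DOM34, whose products release stalled ribosomes together, both had lower values under either scaling. HBS1 was 64.9 FPKM in dbp2Δ and 99.5 FPKM in wild type, and DOM34 was 219 FPKM in dbp2Δ and 311 FPKM in wild type. The exosome genes RRP40 (102 FPKM in dbp2Δ and 84.8 FPKM in wild type) and RRP43 (231 FPKM in dbp2Δ and 276 FPKM in wild type) differed less and in opposite directions. The exosome also acts in the nucleus, so these genes are not particular to the cytoplasm. Of 13 RNA-binding regulators of decay, 2 were compared, 1 higher and 1 lower as deposited and both higher with equal protein-coding sums. JSN1, a member of the Puf family of 3′ UTR binding proteins, was 52.2 FPKM in dbp2Δ and 23.4 FPKM in wild type (2.23-fold) and was the decay factor at least 2-fold higher. PUB1, a poly(U)-binding protein that stabilises some mRNAs, was 146 FPKM in dbp2Δ and 188 FPKM in wild type.

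**Figure D3:**
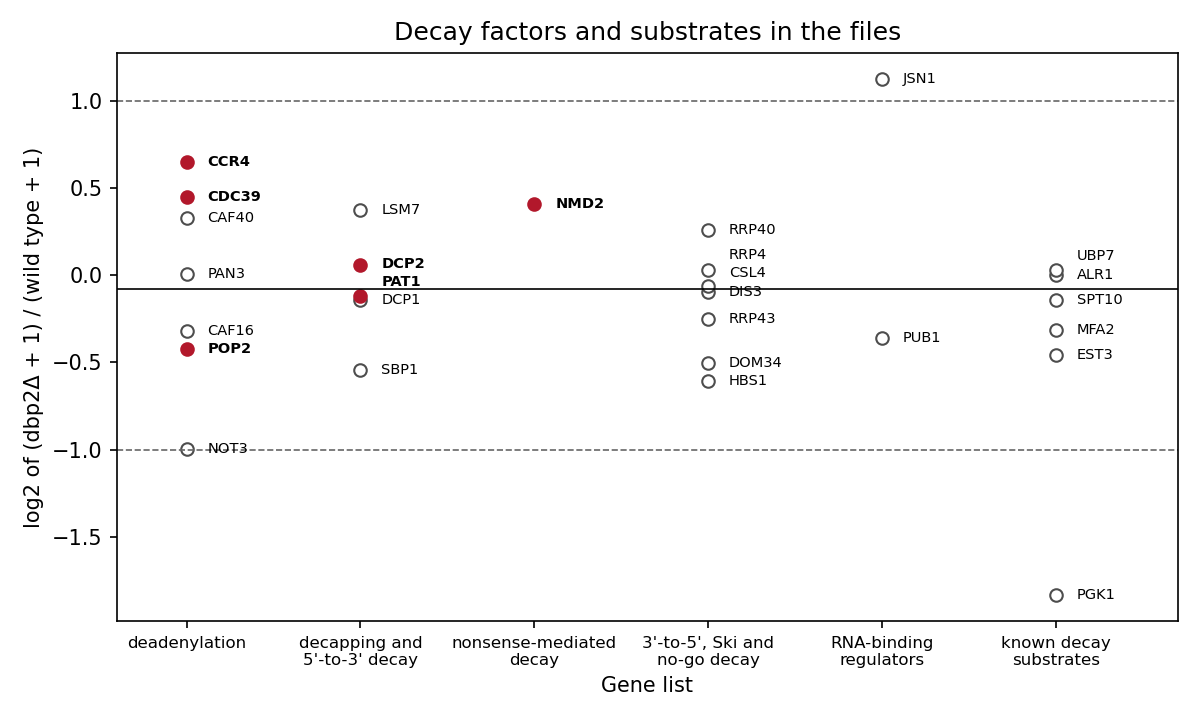
Log2 ratio of dbp2Δ over wild type (pseudocount 1 FPKM) for every compared gene of the 5 decay factor lists and the list of decay substrates, with the members filled and in bold. The solid line is the median of all genes compared (-0.08) and dashed lines mark 2-fold, which JSN1 (1.13) and PGK1 (-1.84) pass and NOT3 (-0.99) just misses.

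Transcripts long used to study decay were given beside the enzymes. Of 21 such genes 6 were compared, 2 higher and 4 lower in dbp2Δ as deposited with a median log2 ratio of -0.23, and 5 higher and 1 lower with equal protein-coding sums (median 0.24). Of all genes compared, 46.0% had a higher value as deposited and 69.8% with equal sums. MFA2, a short-lived a-factor mRNA, was 737 FPKM in dbp2Δ and 915 FPKM in wild type. PGK1, a long-lived glycolytic mRNA, was 8627 FPKM in dbp2Δ and 30793 FPKM in wild type, a log2 ratio of -1.84. Among mRNAs reported as substrates of nonsense-mediated decay, ALR1 was 151 FPKM in both strains, SPT10 was 93.8 FPKM in dbp2Δ and 104 FPKM in wild type, UBP7 was 28.9 FPKM in dbp2Δ and 28.3 FPKM in wild type, and EST3 was 108 FPKM in dbp2Δ and 149 FPKM in wild type. As deposited, 0 of these 4 substrates passed the 1.5-fold limit upwards and 0 downwards, where 18.6% and 23.7% of all genes compared did. Steady-state FPKM do not measure decay rates.

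Whether reads were assigned to genes by strand is not given in the sources used here, so the neighbours of each member were examined. No member overlapped an annotated neighbour in the reference, which holds no UTRs for these genes. NMD2 and its convergent neighbour PTC7, a phosphatase gene, are 148 bp apart. PTC7 was 105 FPKM in dbp2Δ and 323 FPKM in wild type, a log2 ratio of -1.60 and opposite in direction to NMD2. On the other side of NMD2, YHR078W was 85.1 FPKM in dbp2Δ and 112 FPKM in wild type. DCP2 and its convergent neighbour NCS2, a tRNA modification gene, are 130 bp apart. NCS2 was 154 FPKM in dbp2Δ and 130 FPKM in wild type. MLS1, the divergent neighbour of DCP2, stood on 2 rows at or below 7.20 FPKM in either strain.

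CCR4 lies between FUN26 and ATS1 on the same strand. FUN26, a nucleoside transporter gene 415 bp downstream, was 173 FPKM in dbp2Δ and 362 FPKM in wild type, opposite in direction to CCR4. ATS1 was 204 FPKM in dbp2Δ and 224 FPKM in wild type. The neighbours of POP2 both had slightly lower values, with BRE5 at 188 FPKM in dbp2Δ and 195 FPKM in wild type and NOG2 at 1184 FPKM in dbp2Δ and 1395 FPKM in wild type. The neighbours of CDC39 were within 1.08-fold of wild type (MSH3 at 40.4 FPKM in dbp2Δ and 37.6 FPKM in wild type, CDC50 at 98.0 FPKM in dbp2Δ and 97.4 FPKM in wild type). FUB1, next to PAT1, was at 223 FPKM in dbp2Δ and 222 FPKM in wild type. PTC6 on the other side of PAT1 was not analysed here. Of the neighbours of LSM1, MTC1 was 143 FPKM in dbp2Δ and 193 FPKM in wild type, and GCD14 was not analysed here.

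The genes with values most like those of CCR4, the member with the largest ratio, were CRZ1, DYN1 and IRE1. Likeness was the Euclidean distance on log2(FPKM + 1) over the 2 strains, and it was 0.046 for CRZ1, 0.052 for DYN1 and 0.054 for IRE1. CRZ1, a calcineurin-responsive transcription factor gene, was 69.5 FPKM in dbp2Δ and 43.1 FPKM in wild type. With 2 values per gene, such closeness says little.

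The direction of single members depended on the scaling of the strains. Equal protein-coding sums raised the dbp2Δ values by 0.47 on the log2 scale, so that log2 ratios with the pseudocount moved by up to that much and those of low genes by less, and the median of all genes compared became 0.38. Under that scaling all 6 members had higher values in dbp2Δ, from POP2 at 0.04 to CCR4 at 1.11. The number of members at least 2-fold higher was then 1 (CCR4), against 19.9% of all genes compared, 0 members were lower by that factor, against 4.57%, and the number at least 1.5-fold higher was 3 (CCR4, CDC39 and NMD2), against 38.9%. Without the 1% most abundant genes in the sums, POP2 was at -0.12 and PAT1 at 0.18. The order of the members by log2 ratio, with CCR4 first, then CDC39, NMD2, DCP2, PAT1 and POP2, was the same in these 3 scalings and with equal medians. Relative to the median of all genes compared, CCR4, CDC39, NMD2 and DCP2 lay above and PAT1 and POP2 below in each of them. Each scaling multiplies all dbp2Δ values by the same factor. The order and the sides of the median could therefore hardly change, and their constancy is no check of the values.

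**Figure D4:**
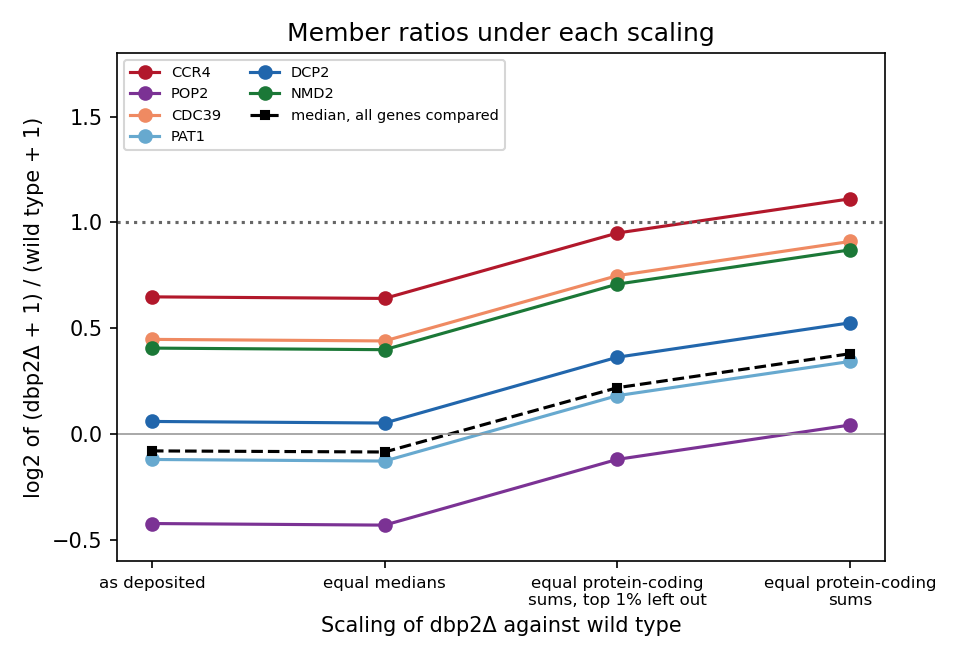
Log2 ratio of dbp2Δ over wild type (pseudocount 1 FPKM) of the 6 decay genes under 4 scalings of the strains, with the median of all genes compared as black squares; the dotted line marks 2-fold. The lines run nearly in parallel because each scaling multiplies all dbp2Δ values by the same factor. POP2 goes from -0.42 as deposited to 0.04 with equal protein-coding sums.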

How the data were processed

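The authors deposited 1 table per strain with a gene name and a value per row, taken here as FPKM from the notes and the values. Cuffdiff 2.1.1 and build sacCer3 are named in the submitters' processing notes. The values are not whole, and over all rows they sum to 1724410 in dbp2Δ and 5210210 in wild type. What lies behind this difference in sums was not tested. Per the labels' protocols, hot acid phenol RNA was depleted of ribosomal RNA in 2 rounds before library preparation with a SOLiD kit for total RNA. How replicates were combined and libraries scaled is not given in the sources used here. Depth is unknown, so no interval was computed, and the labels do not say whether replicates were separate cultures.

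Names on several rows and the 7 rows naming several genes were left out of the comparison. DBP2, SAG1 and MLS1, each on several rows, were described by row only. Genes above 0 in both strains with a mean of at least 1 FPKM were compared (2211), by the log2 ratio with a pseudocount of 1. A value of exactly 0 was never used in a ratio. Coordinates are 1-based R64 (RefSeq), the assembly that sacCer3 refers to. The members and gene lists were chosen with earlier results of these data known. Genes named were all members, DBP2, up to 4 others per list by size of the log2 ratio, the members' neighbours and the 3 genes nearest to CCR4. ALR1, UBP7 and the mating-type genes named were chosen after their values were seen. Alternatives changed the pseudocount, the scaling, the minimum level and the use of repeated names. The procedure was run on a copy of the wild-type values with set folds and no noise, which checks the arithmetic only. Python 3.11.15, numpy 2.4.6, pandas 2.3.3 and matplotlib 3.10.9 were used.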

Additional observations from a re-analysis of the deposited data

How the results depend on the processing

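With 1 deposited value per strain no difference has a replicate check, and unknown depth limits every statement on a single gene. No paired analysis was possible because each strain has 1 value column that carries no replicate number, and for the same reason no replicate could be left out. Of 171 values recomputed under 9 alternatives, 143 moved by no more than 0.1 on the log2 scale or, for counts, by no more than 1.5 times. The other 28 moved further. No log2 ratio past 1.5-fold as deposited changed sign, but CCR4 was the only member past that limit. A pseudocount cannot change a sign, and the scalings raised the log2 ratio of CCR4 or, with equal medians, left it at 0.64. That its sign held is thus no check of the value. With equal protein-coding sums POP2 went from -0.42 to 0.04 and PAT1 from -0.12 to 0.34. The alternatives for repeated names and the minimum level left every member's own ratio unchanged. They could not change it, because each member compared stood on a single row with a mean above 10 FPKM. The members' values under them were thus fixed in advance and are no check, though they count among the 143. With equal protein-coding sums the members' median log2 ratio was 0.70 in place of 0.23, 1 member in place of 0 was at least 2-fold higher, 3 in place of 1 were at least 1.5-fold higher, and 2 decay factors (CCR4 and JSN1) in place of 1 were at least 2-fold higher. Over the 2211 genes compared, that scaling put 441 past 2-fold upwards (196 as deposited) and 101 downwards (241 as deposited). At least 1.5-fold higher were 38.9% of them in place of 18.6%, and their median log2 ratio was 0.38 in place of -0.08. Without the 1% most abundant genes in the sums the members' median was 0.54, beside 0.22 for all genes compared. Under that scaling 3 members were at least 1.5-fold higher, a limit for which the share of all genes was not computed. The 2-fold limit was passed upwards by 0 members and 331 of the 2211 genes compared, and downwards by 0 members and 132 genes. A pseudocount of 10 FPKM left 0 members at least 1.5-fold higher, 0 decay factors and 111 of all genes at least 2-fold higher, since it shrinks every log2 ratio. With equal medians 1 decay factor (NOT3) in place of 0 was at least 2-fold lower.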
